A study of Mus musculus with 16 samples.

Results

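Control hippocampus was compared with control cortex in male mice at postnatal day 47. The members were the 4 control hippocampus libraries (labelled DJ17, DJ20, DJ21 and DJ22) and the 4 control cortex libraries (labelled DJ3, DJ6, DJ7 and DJ8), chosen by the region and genotype in their titles, 8 of the 16 libraries of the series. The other 8 came from conditional knockouts of Foxp1, a forkhead transcription factor gene, with 4 of hippocampus and 4 of cortex. All 16 libraries were poly(A) RNA from the left hemisphere, and the controls were littermates of the knockouts. Which alleles the controls carried, which promoter drove deletion in the knockouts, and whether any mouse gave both regions were not stated in the labels. No DJ number was shared between the regions, and the cortical numbers were all lower than the hippocampal ones, so anything that goes with that numbering and the region itself cannot be told apart.

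Hippocampus and neocortex are neighbouring parts of the cerebral cortex that share a plan of glutamatergic pyramidal neurons and GABAergic interneurons. The hippocampus is a single folded sheet divided into the dentate gyrus, whose granule cells send mossy fibres to CA3, and the pyramidal fields CA3, CA2 and CA1, whereas the neocortex stacks its pyramidal neurons in layers that differ in their targets. The choroid plexus, an epithelium that makes cerebrospinal fluid, and the ciliated ependyma that lines the ventricles lie against the hippocampus and can come away with it. These samples were pieces of whole tissue, so fewer cells of a type and less RNA per cell cannot be told apart.

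Levels are counts-per-million (CPM), the share of a library's listed reads that fell on a gene, and they were not divided by gene length, so levels are compared between regions and not between genes. Differences are hippocampus minus cortex on the scale of log2(CPM + 0.5), with the standard error (SE) from limma. This scale understates the difference of genes with few reads. Of 21999 genes in the table, 13823 averaged 0.5 CPM or more across the 8 libraries and were tested, and a gene was called at a Benjamini-Hochberg adjusted p below 0.05 (limma, two-sided). Calls were repeated under up to 21 alternatives of pseudocount, filter, scaling, test and libraries left out, and a named gene whose call was lost under any of them is marked as such. The 4 libraries of a region are the replicates, and the design text describes the replicates of a genotype as independent.

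The regions differed at 5222 genes, 37.8% of those tested. Of these, 2888 were higher in hippocampus (20.9%) and 2334 were lower (16.9%), and the median over all genes tested was 0.023. The balance depended on the scaling, with 2597 higher and 2651 lower after quantile normalization, 2683 higher and 2489 lower with TMM factors, and 2490 higher and 2611 lower in edgeR's quasi-likelihood test. The 4 hippocampal and 4 cortical values did not overlap for 5089 genes (36.8%). A difference of at least 2-fold was called for 1031 genes (7.46%), with 607 higher (4.39%) and 424 lower (3.07%). The tail was longer on the hippocampal side, where 42 called genes passed an 8-fold difference, against 7 on the cortical side. The 42 include choroid plexus genes described below, among them Ttr, Prlr and Kl. Each group's count below is to be read against these shares.

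Hippocampal libraries held 9578904 to 14817870 reads and cortical libraries 7075560 to 9037821, so every hippocampal library was deeper than every cortical one. The first principal component held 67.7% of the variance and separated the regions, and the second held 9.40% and set hippocampal DJ17 apart. Libraries DJ17 and cortical DJ6 also stood apart in marker levels, as did cortical DJ3 in vascular and microglial markers. Summed myelin genes were at 17217, 9509, 8377 and 6921 CPM in hippocampus, DJ17 being the highest, against 7767, 7631, 8657 and 6424 CPM in cortex. Ttr, the thyroxine carrier made in bulk by choroid plexus, was at 792, 852, 839.6 and 442 CPM in hippocampus, against 0.139, 132, 4.099 and 3.11 CPM in cortex, with DJ6 the high cortical library. Without DJ17 and DJ6 together, an alternative chosen after the data were seen, 4793 genes were called, 2702 higher and 2091 lower, and 1066 passed with a 2-fold difference.

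Choroid plexus genes led the hippocampal side, and ependymal genes were mostly higher as well. All 17 of the 17 choroid plexus genes tested were higher, with a median difference of 3.88, and their summed level was 1767 to 3007 CPM in hippocampus, against 385 to 789 CPM in cortex. The list's member Lmx1a was below the minimum. Kl, which encodes the membrane protein klotho, was at 97.6, 111, 117 and 76.9 CPM in hippocampus, against 2.09, 14.9, 2.97 and 1.78 CPM in cortex. Prlr, the prolactin receptor gene, was at 131, 103, 162 and 104 CPM in hippocampus, against 1.67, 16.3, 3.39 and 2.67 CPM in cortex. Cldn2, a claudin of leaky epithelial junctions, was at 12.7, 15.2, 14.03 and 9.25 CPM in hippocampus, against 0, 0.885, 0.141 and 0 CPM in cortex. In each of these the 4 hippocampal libraries lay above the 4 cortical ones, with DJ22 the lowest hippocampal library for Kl and DJ6 the highest cortical one. Among 13 ependymal genes, 12 were higher and none lower. Foxj1, the master gene of motile cilia, was at 5.05 ± 0.979 CPM in hippocampus and 1.63 ± 0.497 CPM in cortex (SD, n = 4 each), and the axonemal dynein gene Dnah6 differed by 2.90 (SE 0.21). Of the 15 largest hippocampal differences described next, 7 belong to the choroid plexus list, namely Ttr, Prlr, Clic6, Kl, Tmem72, Cldn2 and Otx2. Htr2c, a serotonin receptor gene outside the list that choroid plexus is also known to express, was higher too, and the part of choroid plexus RNA in its level was not tested.

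**Figure D1:**
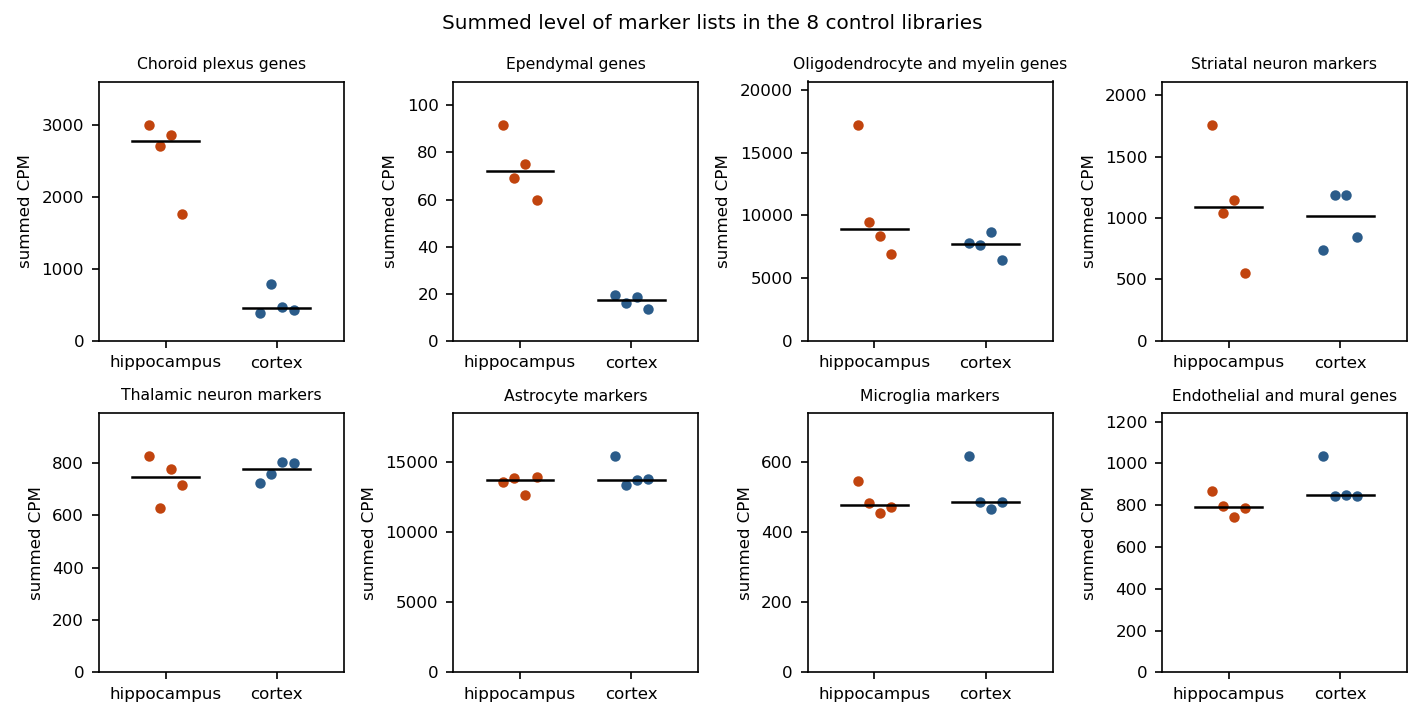
Summed CPM of 8 marker lists (vertical axes, each starting at 0) in the 4 control hippocampus libraries on the left and the 4 control cortex libraries on the right of each panel, with 1 point per library and a line at the median. Choroid plexus and ependymal sums separate the regions, the myelin sum of hippocampal DJ17 reaches 17217 CPM, and the microglial and vascular sums overlap.

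The leading hippocampal genes outside the choroid plexus list were Dsp, Lhx9, Slc9a4, Npy2r, Gpr101, C1ql2, Lct and Htr4. Dsp, which encodes the desmosomal plaque protein desmoplakin and is a marker of dentate granule cells, was at 60.03, 82.4, 46.3 and 62.2 CPM in hippocampus, against 0.278, 0.664, 0.565 and 0.222 CPM in cortex. That is a 145-fold ratio of means, the cortical values being of the order of a few reads per library, and the difference was 6.08 (SE 0.20, adjusted p = 3.7e-10). Lhx9, a LIM-homeodomain factor gene, was at 34.8, 45.8, 44.3 and 54.8 CPM in hippocampus, against 0.418, 0.332, 0.565 and 0.111 CPM in cortex. Its difference was 5.74 (SE 0.19, adjusted p = 3.7e-10), and it stands in the thalamic as well as the hippocampal list. Npy2r, the gene of the presynaptic Y2 receptor for neuropeptide Y, was at 81.01, 100.1, 108 and 107 CPM in hippocampus, against 3.34, 2.102, 4.24 and 4.003 CPM in cortex and differed by 4.69 (SE 0.17). Slc9a4, a sodium/proton exchanger gene, was at 19.1, 31.2, 31.6 and 31.7 CPM in hippocampus, against 0.278, 0.553, 0.707 and 0.445 CPM in cortex and differed by 4.85 (SE 0.20). In all 4 genes the lowest hippocampal value was far above the highest cortical value. Gpr101, an orphan receptor gene, differed by 4.38 (SE 0.41), and Lct, the lactase gene and a granule cell marker, by 4.08 (SE 0.20).

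The leading genes on the cortical side had smaller differences. Igfn1, which encodes an immunoglobulin and fibronectin domain protein known from muscle, was at 1.15, 2.06, 0.7998 and 2.77 CPM in hippocampus, against 27.8, 25.2, 22.9 and 22.2 CPM in cortex and differed by -3.60 (SE 0.24, adjusted p = 1.0e-07). Cbln2, which encodes a secreted organiser of synapses, was at 4.28, 4.83, 5.599 and 8.03 CPM in hippocampus, against 43.7, 52.1, 51.02 and 55.4 CPM in cortex. Chrdl1, which encodes a secreted antagonist of bone morphogenetic proteins, was at 8.04, 6.36, 4.65 and 7.42 CPM in hippocampus, against 72.2, 51.7, 49.7 and 56.4 CPM in cortex. Both were lower in every hippocampal library than in any cortical one, with differences of -3.08 (SE 0.16) and -3.04 (SE 0.16). Further leading genes on this side were Sowahb, Dkkl1, Myl4, Olfr78, Fhod3, Exph5, Cpne9, Ankrd34c, Cckbr and Rgs6, with differences from -3.31 for Sowahb to -2.66 for Rgs6. They include a muscle-type myosin light chain gene (Myl4), an olfactory receptor gene (Olfr78), a formin gene (Fhod3) and an inhibitor of G protein signalling (Rgs6). Dkkl1 and Olfr78 were near 0 in hippocampus, at 0.372 and 0.5599 CPM, against 6.74 and 7.71 CPM in cortex.

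**Figure D2:**
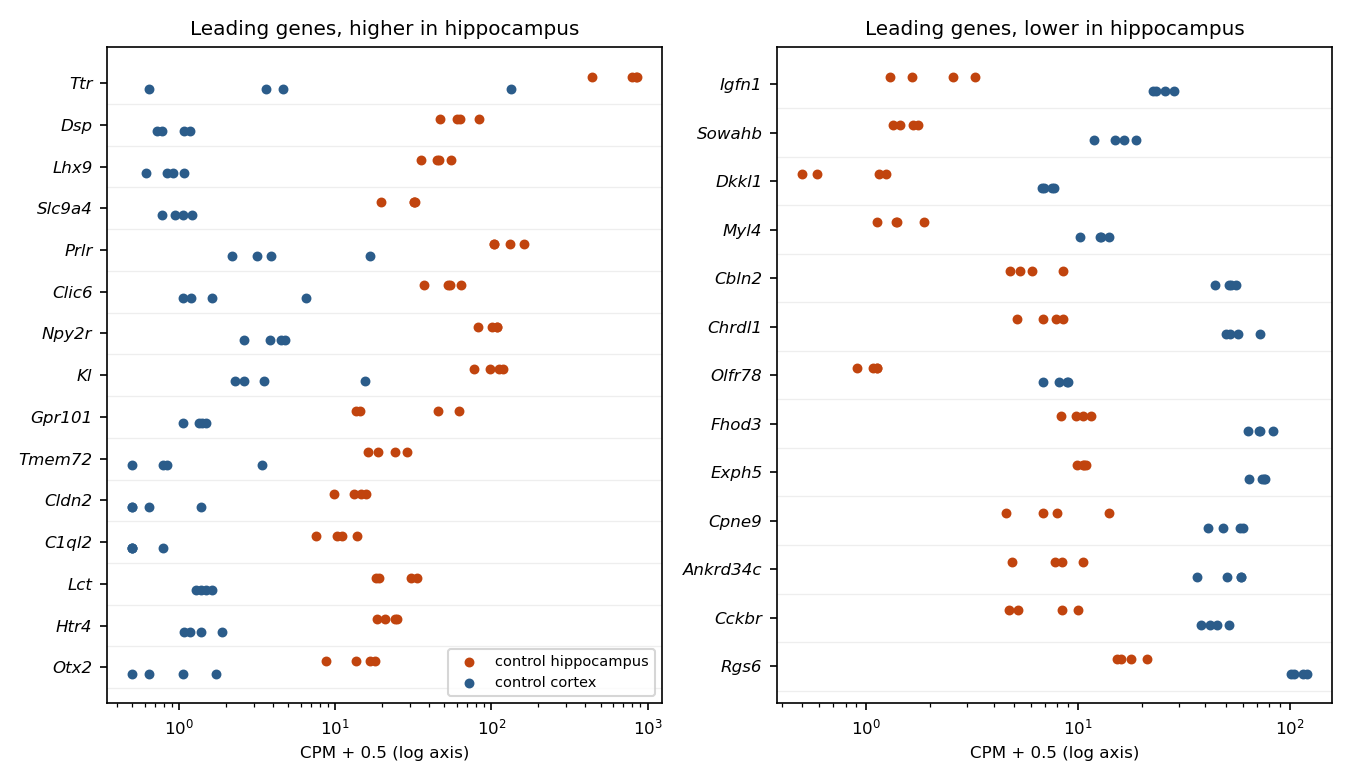
CPM + 0.5 on a log axis (horizontal) for 28 of the 30 leading genes, with 4 control hippocampus libraries in orange above 4 control cortex libraries in blue for each gene. No gene's groups overlap, which the choice of these genes requires, and the cortical Ttr values range from 0.139 to 132 CPM.

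Promoter windows of leading genes on both sides are printed to show the sequence around their starts. The 4 shown are the first 2 leading genes in each direction that are not choroid plexus genes, have 1 listed start and lie on a chromosome whose sequence is given here. They come from RefSeq, GRCm38.p6, run 5′ to 3′ on the gene's strand for 300 bases around the start, most of them upstream, and capitals mark matches on either strand. The motifs searched were the GC box GGGCGG, the CCAAT box, an E-box spelled CAGCTG, a further E-box spelled CAGATG and the TATA box spelled TATAAA. The Dsp window is chr13:38151044-38151343 (plus strand), the Lhx9 window chr1:138842395-138842694 (minus), the Igfn1 window chr1:136006293-136006592 (minus) and the Sowahb window chr5:93044973-93045272 (minus).
Dsp: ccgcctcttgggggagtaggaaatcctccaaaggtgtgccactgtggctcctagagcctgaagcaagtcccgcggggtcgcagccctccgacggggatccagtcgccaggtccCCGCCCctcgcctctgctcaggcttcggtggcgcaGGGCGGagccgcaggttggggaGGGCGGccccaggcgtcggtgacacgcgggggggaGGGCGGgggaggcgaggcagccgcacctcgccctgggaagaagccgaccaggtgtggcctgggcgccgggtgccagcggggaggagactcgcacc
Lhx9: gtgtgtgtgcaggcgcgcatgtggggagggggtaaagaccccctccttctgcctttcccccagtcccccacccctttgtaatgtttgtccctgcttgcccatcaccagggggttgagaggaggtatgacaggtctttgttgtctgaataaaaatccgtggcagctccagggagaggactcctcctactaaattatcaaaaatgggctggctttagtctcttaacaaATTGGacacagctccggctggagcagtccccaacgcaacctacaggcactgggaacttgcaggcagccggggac
Igfn1: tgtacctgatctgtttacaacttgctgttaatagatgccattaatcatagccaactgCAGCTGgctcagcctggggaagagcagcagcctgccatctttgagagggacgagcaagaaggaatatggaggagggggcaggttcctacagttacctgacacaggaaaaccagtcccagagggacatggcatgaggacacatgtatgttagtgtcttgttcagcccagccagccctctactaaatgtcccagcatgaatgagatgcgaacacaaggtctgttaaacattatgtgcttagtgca
Sowahb: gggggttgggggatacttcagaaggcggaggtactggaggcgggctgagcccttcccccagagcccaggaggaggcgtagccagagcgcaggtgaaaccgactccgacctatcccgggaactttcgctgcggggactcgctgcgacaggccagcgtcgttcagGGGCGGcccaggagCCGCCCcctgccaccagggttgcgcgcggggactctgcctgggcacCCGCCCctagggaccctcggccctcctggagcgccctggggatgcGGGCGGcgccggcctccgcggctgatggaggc
Dsp and Sowahb, which lie on opposite sides of the comparison, each held 27 CpG dinucleotides and 4 GGGCGG matches and no other motif searched. Lhx9 held 6 CpG and 1 CCAAT match on the reverse strand, and Igfn1 held 2 CpG and 1 CAGCTG match. A GGGCGG match was present in 57.3% of the windows of genes at least 2-fold higher in hippocampus and 58.1% of those at least 2-fold lower, against 64.05% of genes tested and 35.9% of all 27025 windows. CAGATG was in 16.00% and 13.8%, against 11.5% of genes tested and 17.2% of all windows. CAGCTG, which reads the same on both strands, was in 15.8% and 17.8%, against 15.2% and 16.1%. TATAAA was in 10.7% and 12.1%, against 6.95% and 14.2%. CCAAT was in 38.7% and 31.2%, against 38.4% and 37.9%. The windows were matched by symbol, for 450 of 607 genes higher, 298 of 424 lower and 10606 of 13823 tested, taking the first listed start of each gene, and these shares are descriptions with no test.

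Dentate granule cell markers were mostly higher in hippocampus. Of 17 tested, 11 were higher and 1 lower, with a median of 1.34. Prox1, the homeobox gene that sets granule cell fate and that some cortical interneurons also use, was at 252, 270.3, 162 and 251 CPM in hippocampus, against 28.95, 28.8, 32.6 and 28.1 CPM in cortex. It was 7.896 times the cortical mean and differed by 2.94 (SE 0.13, adjusted p = 3.1e-09), with no overlap. C1ql2, whose product is secreted at mossy fibre synapses, was at 9.81, 13.3, 7.05 and 10.5 CPM in hippocampus, against 0, 0, 0.283 and 0 CPM in cortex. Tdo2, the tryptophan dioxygenase gene, was at 6.05, 6.89, 5.16 and 6.95 CPM in hippocampus, against 1.25, 0.332, 0.989 and 0.667 CPM in cortex. Both were near 0 in cortex, where C1ql2 had reads in 1 library only. The guanine nucleotide exchange factor gene Dock10 differed by 1.64 (SE 0.10), the transcription factor genes Glis3 and Rfx3 by 1.89 (SE 0.16) and 1.34 (SE 0.082), and the Notch coactivator gene Maml2 by 1.40 (SE 0.11). Trpc6 and Cygb were higher by less, at 0.66 and 0.31, and the call of Cygb was lost under 2 of 21 alternatives (adjusted p 0.055 to 0.068). Npnt, which encodes the matrix protein nephronectin, was lower (-0.68 (SE 0.10)), and Stxbp6, C1ql3, Pdzd2, Sema5b and Plk5 were not called, at 0.07, -0.06, -0.11, -0.30 and -0.76.

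The dentate gyrus goes on adding neurons after birth, and genes of immature granule cells and dividing progenitors were mostly higher in hippocampus. Of 15 tested, 10 were higher and 2 lower. Eomes, the T-box gene of intermediate progenitors, was at 3.13, 3.04, 1.75 and 1.55 CPM in hippocampus, against 0.418, 0.111, 0.424 and 0.222 CPM in cortex. Igfbpl1, a gene of newborn granule neurons, was at 3.13, 2.69, 2.33 and 2.63 CPM in hippocampus, against 0.139, 0.443, 0.141 and 0.111 CPM in cortex. Neither group overlapped the other in these 2 genes, although cortical values rested on few reads. The proliferation genes Mki67 and Top2a differed by 0.81 (SE 0.26) and 0.80 (SE 0.28), but the call of Mki67 was lost under 4 of 21 alternatives (adjusted p 0.056 to 0.086) and that of Top2a lost under 9 of 21 alternatives (adjusted p 0.051 to 0.13). Neurod1, a proneural factor gene, and Sox11, an early neuronal factor gene, were higher by 0.89 (SE 0.12) and 1.03 (SE 0.065). Dcx, which encodes doublecortin of migrating neurons, went the other way, at 91.2 ± 6.89 CPM in hippocampus and 115 ± 3.698 CPM in cortex (SD, n = 4 each), and so did the ion transport regulator gene Fxyd7 (-1.49 (SE 0.13)). Sox4, Frzb and Tac2 were not called. In the mossy cell and hilar list, Csf2rb2 and Calb2 were higher out of 8, by 1.49 (SE 0.28) and 1.23 (SE 0.29), and none was lower. That is a called share of 25%, below the 37.8% of all genes tested. Calb2 also stands in the immature granule cell and interneuron subtype lists.

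Markers of the pyramidal fields were mostly higher in hippocampus. In CA1, 8 of 11 markers were higher and 2 lower, in CA2 6 of 9 higher and 1 lower, and in CA3 9 of 12 higher and 1 lower. The medians were 1.05, 1.06 and 0.91. Fibcd1, a CA1 marker that encodes a chitin-binding membrane protein, was at 22.1, 43.3, 30.2 and 36.4 CPM in hippocampus, against 1.81, 1.88, 2.403 and 2.56 CPM in cortex. Ndst4, a heparan sulfate editing enzyme gene, was at 64.3, 61.2, 56.3 and 57.6 CPM in hippocampus, against 4.73, 3.43, 15.3 and 12.8 CPM in cortex. Each was higher in every hippocampal library than in any cortical one, and cortical Ndst4 varied most. Spink8 (3.03 (SE 0.23)), Crym (1.93 (SE 0.18)), Dcn (1.09 (SE 0.30), its call lost under 1 of 21 alternatives (adjusted p 0.074)), Man1a (1.05 (SE 0.071)), Wfs1 (0.86 (SE 0.16)) and Pou3f1 (0.66 (SE 0.15)) were also higher. Dcn also stands in the meningeal fibroblast list. Mpped1, a gene of the same CA1 list as those above, was lower (-0.59 (SE 0.10)), and Nov was not called (-0.27 (SE 0.21)).

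For CA2, Amigo2, an adhesion molecule gene used to mark the field, was at 24.01, 31.4, 40.7 and 38.4 CPM in hippocampus, against 7.66, 7.75, 6.501 and 9.897 CPM in cortex. Necab2, a neuronal calcium-binding protein gene, was at 27.98, 31.7, 36.8 and 32.8 CPM in hippocampus, against 6.96, 7.97, 10.7 and 6.67 CPM in cortex. The 4 hippocampal values of both were above all cortical ones, and Map3k15, Ntf3, Cacng5 and Rgs14 were higher too, by 1.26, 1.22, 1.06 and 0.91. Pcp4, a calmodulin regulator gene of CA2 that also marks cortical layers 5 and 6, was at 188, 102, 106 and 92.6 CPM in hippocampus, against 275, 313, 282 and 286 CPM in cortex, lower in hippocampus, with a difference of -1.30 (SE 0.17). With Pcp4 in it, the summed CA2 list was lower in 3 of 4 hippocampal libraries than in any cortical library, at 455, 339.5, 379.5 and 327 CPM in hippocampus, against 432, 497, 464 and 458 CPM in cortex, although 6 of 9 members were higher. For CA3, the copine gene Cpne7, which encodes a calcium-dependent membrane-binding protein, was at 73.8, 135, 149 and 169.5 CPM in hippocampus, against 6.26, 8.19, 9.75 and 7.23 CPM in cortex. Nnat, an imprinted gene that encodes neuronatin, was at 111, 146, 181 and 198 CPM in hippocampus, against 31.7, 17.3, 32.1 and 19.9 CPM in cortex. Grik4, the gene of a high-affinity kainate receptor subunit of mossy fibre synapses, was at 43.7 ± 8.49 CPM in hippocampus and 16.4 ± 2.34 CPM in cortex (SD, n = 4 each). Iyd, Cpne4, Slc17a8, Plagl1, Trps1 and Cdh24 were higher by 2.65, 1.26, 0.91, 0.91, 0.78 and 0.59, and the call of Cdh24 was lost under 7 of 21 alternatives (adjusted p 0.056 to 0.11). Coch, a secreted protein gene in the same list, was lower, with a difference of -1.99 (SE 0.16).

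Cortical layer lists leaned to the cortex in the upper layers and layer 4 and were mixed below. Of 15 upper layer markers, 9 were lower in hippocampus and 1 was higher, of 10 layer 4 markers 8 were lower and none higher, of 16 layer 5 markers 6 were lower and 6 higher, and of 19 layer 6 markers 9 were lower and 5 higher. Lamp5, a membrane protein gene of upper layer neurons and some interneurons, was at 33.7, 29.5, 37.8 and 27.4 CPM in hippocampus, against 192, 201, 186 and 203 CPM in cortex. Cux2, a homeobox gene of layers 2 to 4, was at 33.3, 28.4, 38.7 and 31.04 CPM in hippocampus, against 157, 149, 144 and 156 CPM in cortex. Mef2c, an activity-dependent transcription factor gene, was at 386, 334, 432 and 402 CPM in hippocampus, against 1690.4, 1819.9, 1795 and 1943 CPM in cortex. In these 3 genes the hippocampal range ended well below the cortical range, and the differences were -2.60 (SE 0.089), -2.20 (SE 0.085) and -2.23 (SE 0.072). Pou3f2, Cux1, Kitl and Rasgrf2 were lower, with differences of -1.67, -1.25, -1.09 and -0.85. Otof, the otoferlin gene, was the upper layer marker that was higher, at 28.2 ± 10.6 CPM in hippocampus and 14.9 ± 2.26 CPM in cortex (SD, n = 4 each). Calb1, which encodes calbindin and marks both granule cells and upper layer neurons, was not called, at 229.7 ± 38.8 CPM in hippocampus and 246 ± 13.00 CPM in cortex (SD, n = 4 each).

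Rorb, the nuclear receptor gene that marks layer 4, was at 93.7, 72.1, 66.4 and 64.7 CPM in hippocampus, against 231, 228, 222 and 272 CPM in cortex. Kcnh5, a voltage-gated potassium channel gene in the layer 4 list, was at 10.4, 6.45, 7.85 and 4.45 CPM in hippocampus, against 28.3, 51.3, 42.8 and 50.6 CPM in cortex. Both were lower in every hippocampal library than in any cortical library, with differences of -1.69 (SE 0.11) and -2.51 (SE 0.23). Plcxd2, Rspo1, Endou, Tmem215, Zmat4 and Whrn were lower, with differences of -1.70, -1.99, -0.91, -0.55, -0.45 and -0.41. The call of Endou was lost under 2 of 21 alternatives (adjusted p 0.058 to 0.06), that of Tmem215 lost under 3 of 21 alternatives (adjusted p 0.056 to 0.083) and that of Whrn lost under 6 of 21 alternatives (adjusted p 0.058 to 0.11). In layer 5, Bcl11b, the factor gene of corticospinal neurons that dentate and CA1 neurons also use, was higher, at 379, 365, 329 and 309 CPM in hippocampus, against 129.9, 148, 160.3 and 137 CPM in cortex. Crim1 and Fam84b were higher by 1.10 (SE 0.082) and 1.08 (SE 0.13), whereas Rbp4, Scube1, Tox, Deptor and Ldb2 were lower, with differences of -1.86, -1.64, -1.57, -1.50 and -0.65. Fezf2, the selector gene of subcerebral projection neurons, was not called (-0.27 (SE 0.19)). In layer 6, Tbr1, the T-box gene of corticothalamic neurons, was at 52.3, 55.7, 63.8 and 57.8 CPM in hippocampus, against 231, 258, 271 and 264 CPM in cortex. Its cortical mean was 4.46 times the hippocampal one, and Cplx3, Ctgf and Rprm of the deepest layers were lower, with differences of -2.01, -1.49 and -1.29. Car12 (carbonic anhydrase) and Crym, listed for layer 6, were higher in hippocampus, by 2.54 (SE 0.16) and 1.93 (SE 0.18), and Foxp2 and Tle4 were not called (-0.71 (SE 0.31) and -0.10 (SE 0.084)).

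**Figure D3:**
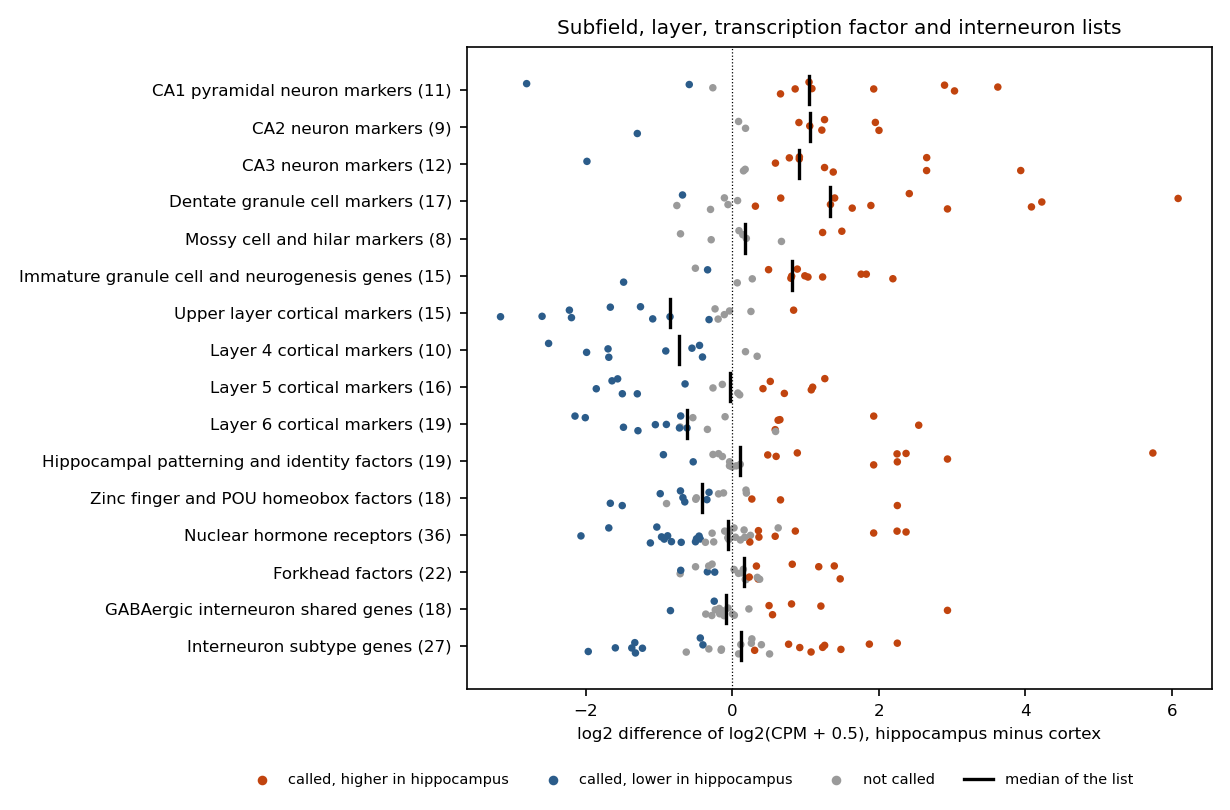
Difference of log2(CPM + 0.5), hippocampus minus cortex (horizontal axis), with 1 point for each tested gene of a list, its colour giving the call, a black line at the list's median and the number of tested genes in brackets. The medians of the CA1, CA2, CA3 and dentate lists lie between 0.91 and 1.34, and those of the upper layer, layer 4 and layer 6 lists between -0.85 and -0.62.

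Transcription factor genes were called in both directions. Of 19 hippocampal identity factors 9 were higher and 2 lower, of 20 cortical projection neuron identity genes 7 were higher and 8 lower, and of 18 zinc finger and POU factors 3 were higher and 8 lower. Zbtb20, a zinc finger gene required for hippocampal CA1 identity, was at 1753, 1502, 1127 and 1409 CPM in hippocampus, against 280.5, 297, 349 and 279 CPM in cortex, and Nr2f2, the COUP-TFII gene, at 83.2, 77.2, 182 and 210.4 CPM in hippocampus, against 20.04, 23.8, 33.8 and 28.4 CPM in cortex. Both were higher by 2.25 (SE 0.11) and 2.25 (SE 0.28), while the relative of Nr2f2, Nr2f1, was at 119.6 ± 16.5 CPM in hippocampus and 125 ± 11.8 CPM in cortex (SD, n = 4 each) and not called (-0.063 (SE 0.10)). Of the EMX genes, which pattern the medial cortex, Emx1 was lower (-1.12 (SE 0.17)) and Emx2 was not called (0.052 (SE 0.12)). Satb1, a chromatin organiser gene, was lower (-1.25 (SE 0.069)). Among LIM-only genes, Lmo4 was lower (-1.14 (SE 0.062)), Lmo1 and Lmo3 were higher (1.27 (SE 0.24) and 0.66 (SE 0.076)), and Lmo2 was not called. The proneural genes Neurod1, Neurod2 and Neurod6 were all higher, by 0.89, 0.85 and 1.25, as was the related Bhlhe22 (1.30 (SE 0.089)). The nuclear factor I genes Nfia and Nfib were higher by 0.75 (SE 0.071) and 0.94 (SE 0.071), and Mef2a was higher (0.57 (SE 0.053)) while Mef2c was lower.

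Nuclear hormone receptors had 8 genes higher and 13 lower of 36 tested. Nr3c2, which encodes the mineralocorticoid receptor, was at 330.3, 303, 237 and 256 CPM in hippocampus, against 53.3, 54.4, 54.6 and 52.2 CPM in cortex. Nr3c1, the gene of the glucocorticoid receptor that binds the same hormone with lower affinity, was at 229, 203, 180.0 and 186 CPM in hippocampus, against 262, 291, 260.1 and 279 CPM in cortex. Nr3c2 was 5.25 times higher in hippocampus, with no overlap, whereas Nr3c1 was lower, with a difference of -0.45 (SE 0.073). Nr4a3, an inducible orphan receptor gene, was at 179 ± 12.8 CPM in hippocampus and 49.7 ± 22.99 CPM in cortex (SD, n = 4 each), higher by 1.93 (SE 0.20), while its relative Nr4a1 was lower (-1.12 (SE 0.19)). Pparg, a lipid-sensing receptor gene, was at 1.04, 1.25, 0.654 and 0.675 CPM in hippocampus, against 4.18, 5.53, 4.099 and 8.23 CPM in cortex, and Pgr, the progesterone receptor gene, was lower, with a difference of -1.03 (SE 0.09). Of 22 forkhead genes tested, 7 were higher and 3 lower. Foxo1, a target of insulin signalling, was at 103, 91.9, 99.2 and 119 CPM in hippocampus, against 32.99, 38.8, 43.4 and 32.8 CPM in cortex, Foxo6 was higher by 1.18 (SE 0.32), and Foxo3 was lower, with a difference of -0.71 (SE 0.066). Foxp1, the gene deleted in the knockouts, was at 276, 248, 214 and 171 CPM in hippocampus, against 265, 298, 288 and 286 CPM in cortex in these controls, with a difference of -0.34 (SE 0.11) and overlapping groups, and its call was lost under 6 of 21 alternatives (adjusted p 0.055 to 0.079). Foxp4 was not called (0.13 (SE 0.13)).

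Interneuron genes were called in both directions. Gad1, which makes most GABA, was at 386 ± 19.4 CPM in hippocampus and 379 ± 15.1 CPM in cortex (SD, n = 4 each) and was not called, while Gad2, the isoform gene of nerve terminals, was higher by 0.55 (SE 0.08). Of 18 shared genes, 5 were higher and 2 lower, a called share of 38.9%, near the 37.8% of all genes tested. The granule cell gene Prox1 was among those 5. Of 27 subtype genes, 9 were higher and 8 lower, a called share of 63.0%. Vip, the vasoactive intestinal peptide gene, was at 10.5, 14.1, 14.03 and 21.7 CPM in hippocampus, against 57.5, 55.1, 55.8 and 66.8 CPM in cortex. Npy, the neuropeptide Y gene, was at 26.9, 24.7, 25.6 and 26.1 CPM in hippocampus, against 90.2, 75.8, 78.9 and 72.95 CPM in cortex. Pvalb, the parvalbumin gene of fast-spiking cells, was at 20.4, 15.9, 13.6 and 14.8 CPM in hippocampus, against 43.4, 43.6, 39.9 and 42.3 CPM in cortex. Each was lower in hippocampus without overlap, with differences of -1.97 (SE 0.16), -1.60 (SE 0.077) and -1.37 (SE 0.11). Crh and the synaptotagmin gene Syt2 were lower, with differences of -1.33 (SE 0.24) and -1.32 (SE 0.15). On the other side Nos1, the neuronal nitric oxide synthase gene, was at 112, 137, 155 and 192 CPM in hippocampus, against 38.3, 37.4, 45.1 and 38.1 CPM in cortex, Kit, a receptor kinase gene, at 79.03, 120.0, 110.1 and 122 CPM in hippocampus, against 34.7, 39.1, 36.6 and 40.9 CPM in cortex, and Tnfaip8l3 was higher by 2.25 (SE 0.13). Tacr1, the substance P receptor gene, was higher by 1.26 (SE 0.25).

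Of 24 peptide genes, 4 were higher and 9 lower, and of 34 receptor genes 13 were higher and 8 lower. Npy and its receptor gene Npy2r moved in opposite directions, Npy lower, with a difference of -1.60 (SE 0.077) and Npy2r higher by 4.69 (SE 0.17). Cck, the cholecystokinin gene, and Cckbr, its brain receptor gene, were both lower, Cck at 40.8, 49.2, 42.8 and 50.3 CPM in hippocampus, against 128, 101, 93.8 and 109.8 CPM in cortex and Cckbr at 4.698, 4.21, 9.52 and 7.896 CPM in hippocampus, against 51.1, 44.7, 37.5 and 41.6 CPM in cortex. Adcyap1, the gene of the peptide PACAP, was at 1.67, 2.33, 7.63 and 15.9 CPM in hippocampus, against 29.9, 19.7, 18.2 and 22.8 CPM in cortex, lower, with a difference of -2.09 (SE 0.48), a call that was lost under 1 of 21 alternatives (adjusted p 0.053). Nts, the neurotensin gene, was higher, at 5.32, 4.92, 10.2 and 6.01 CPM in hippocampus, against 0.974, 0.332, 1.13 and 0.778 CPM in cortex. Rxfp3 and Galr1, receptor genes for relaxin-3 and galanin, were higher by 1.89 (SE 0.26) and 1.74 (SE 0.29). Rxfp2, Rxfp1 and Crhr1 were lower, with differences of -2.11 (SE 0.21), -1.50 (SE 0.095) and -1.47 (SE 0.18). Igf2, which the peptide list shares with the choroid plexus and meningeal lists, was higher by 1.35 (SE 0.12).

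Potassium channel genes leaned to the cortex. Of 68 tested, 38 were lower in hippocampus and 15 higher, with a median of -0.39 against 0.023 over all genes tested. Kcnh7, an ERG-type channel gene, was at 261, 223, 223 and 198 CPM in hippocampus, against 839, 916, 909.8 and 973 CPM in cortex. Kcnh5 and Kcnh4, of the EAG and ELK types, were lower, with differences of -2.51 (SE 0.23) and -2.06 (SE 0.26), so the ether-a-go-go family held 3 of the 5 most negative differences on this list. The beta subunit gene Kcnab3 was at 12.9, 12.00, 14.3 and 15.2 CPM in hippocampus, against 42.7, 60.5, 54.1 and 55.5 CPM in cortex, and the silent subunit gene Kcns1 was lower, with a difference of -1.90 (SE 0.18). In both the groups did not overlap. Kctd4, named for the channel's tetramerisation domain, was at 149, 152, 128 and 154 CPM in hippocampus, against 43.7, 24.9, 39.7 and 36.1 CPM in cortex and was higher by 2.02 (SE 0.14). Kcng2, a modifier subunit gene, Kcnd3, a transient current gene, and Kcnip2 were higher by 1.82, 0.81 and 0.69.

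Sodium, HCN and calcium channel genes were divided, with 14 higher and 18 lower of 42. The beta subunits of the sodium channel moved apart, with Scn3b at 296, 391, 333 and 351 CPM in hippocampus, against 108, 106, 117 and 99.3 CPM in cortex and Scn4b at 71.8, 21.8, 15.5 and 7.15 CPM in hippocampus, against 56.5, 97.5, 83.1 and 62.4 CPM in cortex. Scn3b was higher by 1.66 (SE 0.08) and Scn4b lower, with a difference of -1.80 (SE 0.48), but Scn4b overlapped through DJ17 and its call was lost under 2 of 21 alternatives (adjusted p 0.087 to 0.12). Among pore subunits Scn9a was higher by 1.70 (SE 0.25) and Scn1a, prominent in parvalbumin cells, lower, with a difference of -0.90 (SE 0.076). The cation channel genes Trpc4 and Trpc5 were higher (1.56 (SE 0.12) and 1.33 (SE 0.11)). Cacna1h, a low-threshold calcium channel gene, was higher by 1.41 (SE 0.12). Of the other genes on this list, Cacng3 and the auxiliary subunit gene Cacnb4 were lower, with differences of -1.38 (SE 0.081) and -1.10 (SE 0.075).

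Glutamate receptor genes had 12 higher and 12 lower of 30, and the direction differed within the AMPA, kainate and metabotropic classes. Gria1, the AMPA receptor subunit gene tied to synaptic plasticity, was at 1226, 1484, 1412 and 1405 CPM in hippocampus, against 409, 426, 445 and 418 CPM in cortex. Gria4, another AMPA subunit gene, was at 123, 122, 137 and 134 CPM in hippocampus, against 254, 218, 199 and 211 CPM in cortex. Gria1 was 3.25 times higher in hippocampus while Gria4 was lower, with a difference of -0.77 (SE 0.074). Shisa6, an AMPA receptor auxiliary gene, was at 238, 349, 309 and 282 CPM in hippocampus, against 14.5, 24.01, 27.7 and 26.5 CPM in cortex, higher by 3.67 (SE 0.17, adjusted p = 4.7e-09). Of kainate subunit genes, Grik4 was higher and Grik3 lower, with differences of 1.38 (SE 0.14) and -0.83 (SE 0.10). Of metabotropic genes, the group I gene Grm5 was higher by 0.85 (SE 0.048), and Grm3, Grm4 and Grm8, of groups II and III, were lower, with differences of -1.11 (SE 0.14), -1.04 (SE 0.13) and -1.35 (SE 0.19).

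GABA and glycine receptor genes had 7 higher and 9 lower of 21, and the alpha subunits divided. Gabra5, the subunit of extrasynaptic tonic receptors, was at 325, 373, 307 and 324 CPM in hippocampus, against 99.8, 97.6, 101 and 102 CPM in cortex. Gabra3 was at 77.04, 92.1, 166 and 152 CPM in hippocampus, against 319, 321, 321 and 322 CPM in cortex. Gabra5 and Gabra2 were higher, by 1.72 (SE 0.061) and 1.04 (SE 0.066), and Gabra3 was lower, with a difference of -1.47 (SE 0.19). The delta subunit gene Gabrd was lower (-1.38 (SE 0.19)) and the beta subunit gene Gabrb1 higher (0.78 (SE 0.057)). Gabre was higher by 1.58 (SE 0.44) from low levels, at 1.69 ± 1.48 CPM in hippocampus and 0.0979 ± 0.0667 CPM in cortex (SD, n = 4 each).

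Among monoamine and acetylcholine receptors, 11 genes were higher and 14 lower of 37. Htr4, a serotonin receptor gene coupled to cyclic AMP, was at 24.3, 18.1, 20.4 and 23.6 CPM in hippocampus, against 1.39, 0.885, 0.565 and 0.667 CPM in cortex. Htr2c was at 136, 118, 194 and 144 CPM in hippocampus, against 21.99, 26.3, 36.2 and 24.02 CPM in cortex. Htr2a, the related receptor gene, was at 8.35, 6.45, 11.3 and 10.5 CPM in hippocampus, against 21.6, 27.8, 34.2 and 32.6 CPM in cortex. Htr4 and Htr2c were higher, by 4.03 (SE 0.19) and 2.43 (SE 0.16), and Htr2a was lower, with a difference of -1.62 (SE 0.18), and choroid plexus, whose genes were also higher, is known for Htr2c. Drd5, a dopamine receptor gene, was at 5.64, 11.4, 9.16 and 7.42 CPM in hippocampus, against 1.81, 1.33, 1.55 and 1.67 CPM in cortex. Chrm5, a muscarinic receptor gene, was at 1.46, 4.03, 2.399 and 2.77 CPM in hippocampus and was listed at 0 in all 4 cortical libraries. Against a floor of 3 reads over the cortical group, it was at least 28.7-fold higher in hippocampus. The adrenergic receptor gene Adra1b was at 2.82, 1.52, 2.47 and 2.23 CPM in hippocampus, against 15.9, 15.7, 13.4 and 10.9 CPM in cortex, lower, with a difference of -2.40 (SE 0.18). The histamine receptor gene Hrh2, the nicotinic subunit gene Chrnb3 and the adrenergic gene Adra1a were lower, with differences of -1.28 (SE 0.15), -2.15 (SE 0.19) and -1.27 (SE 0.15).

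Transmitter release genes were lower in hippocampus for 30 of 44 tested and higher for 7, with a median of -0.33. Snap25, a core fusion protein gene, was at 3169.7, 3409, 3376 and 3331 CPM in hippocampus, against 5909, 5989.7, 5902 and 6163 CPM in cortex. Stx1a, its syntaxin partner, was at 24.1, 29.01, 31.4 and 30.7 CPM in hippocampus, against 118, 103, 99.9 and 111 CPM in cortex. Both were lower without overlap, with differences of -0.85 (SE 0.045) and -1.89 (SE 0.089). Rims3 and Rims1, active zone genes, were lower, with differences of -1.94 (SE 0.13) and -0.92 (SE 0.059). The calcium sensor paralogs Doc2b and Doc2a moved in opposite directions. Doc2b was at 108, 129.7, 111 and 112 CPM in hippocampus, against 14.2, 12.3, 12.7 and 11.8 CPM in cortex, and Doc2a was at 2.51, 3.49, 8.72 and 6.75 CPM in hippocampus, against 21.3, 18.04, 18.1 and 20.6 CPM in cortex. Doc2b was higher by 3.13 (SE 0.084) and Doc2a lower, with a difference of -1.91 (SE 0.28). Syt10, Slc17a8 and Syn2 were higher by 0.97, 0.91 and 0.69. Of 38 postsynaptic genes, 10 were higher and 19 lower. Camk2n1, an inhibitor gene of the kinase CaMKII, was at 1447, 1158, 1168 and 1058 CPM in hippocampus, against 4314, 3264, 3817 and 3794 CPM in cortex. Rgs4, a regulator of G protein signalling, was at 284, 195, 234 and 204 CPM in hippocampus, against 764, 857, 732 and 843 CPM in cortex. Both were lower, with differences of -1.65 (SE 0.095) and -1.81 (SE 0.10), without overlap. The Homer scaffold genes split, with Homer3 higher by 2.71 (SE 0.23) and Homer1 lower, with a difference of -0.89 (SE 0.094), and the kinase gene Camk2b was higher by 0.74 (SE 0.057).

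**Figure D4:**
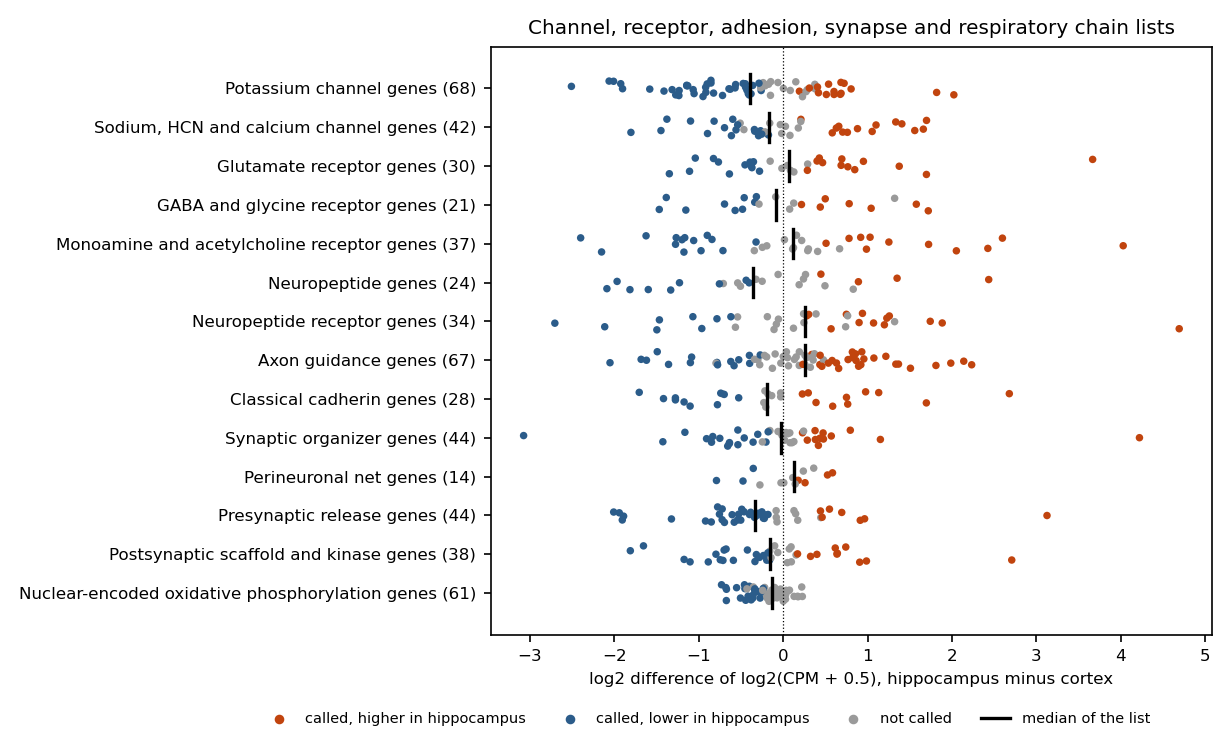
Difference of log2(CPM + 0.5), hippocampus minus cortex (horizontal axis), with 1 point for each tested gene of a list, coloured by its call, a black line at the list's median and the number of tested genes in brackets. The potassium channel and release lists have medians of -0.39 and -0.33, and most other lists hold called genes on both sides of 0.

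Axon guidance genes leaned to the hippocampus, with 27 higher and 15 lower of 67. The neuropilin genes, which encode semaphorin receptors, were both higher, with Nrp2 at 118, 128, 143 and 166 CPM in hippocampus, against 32.2, 22.5, 33.5 and 28.6 CPM in cortex and Nrp1 at 101, 125, 107 and 125 CPM in hippocampus, against 32.6, 31.2, 24.3 and 26.5 CPM in cortex. Sema3a, the ligand of neuropilin 1, was at 26.1, 16.6, 36.7 and 24.2 CPM in hippocampus, against 74.1, 81.1, 80.4 and 89.6 CPM in cortex, lower, with a difference of -1.68 (SE 0.17). The receptor genes thus lay above and this ligand gene below the cortical range. Slit1, a repellent ligand gene, was at 57.9, 98.8, 84.2 and 98.7 CPM in hippocampus, against 18.2, 18.7, 19.2 and 17.7 CPM in cortex, and Epha6 and Sema3e were higher by 1.81 (SE 0.10) and 1.51 (SE 0.071). Efna5, an ephrin gene, was at 17.5, 11.9, 15.6 and 20.99 CPM in hippocampus, against 57.5, 72.4, 69.1 and 77.4 CPM in cortex, and Plxnd1 and Ephb6 were lower, with differences of -1.62 (SE 0.11) and -1.49 (SE 0.11). Cadherins were even, with 10 higher and 10 lower of 28. Pcdh20 and Pcdh19, protocadherin genes, were at 316 ± 25.4 CPM in hippocampus and 48.9 ± 3.57 CPM in cortex (SD, n = 4 each) and at 212 ± 28.2 CPM in hippocampus and 64.7 ± 1.84 CPM in cortex (SD, n = 4 each). Cdh6 and Pcdh7 were lower, with differences of -1.71 (SE 0.16) and -1.42 (SE 0.11), and Cdh9, a cadherin gene of dentate to CA3 synapses, was higher by 0.98 (SE 0.10). Of 44 synaptic organiser genes 12 were higher and 17 lower, and the LRRTM genes divided, with Lrrtm1 higher (1.15 (SE 0.077)) and Lrrtm3 lower (-1.43 (SE 0.091)).

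Secreted signals also differed. Tgfb2, a transforming growth factor gene, was at 139, 159, 149 and 147 CPM in hippocampus, against 26.7, 21.1, 24.9 and 23.7 CPM in cortex, and Fgfr1, a fibroblast growth factor receptor gene, at 75.4, 82.2, 76.1 and 78.01 CPM in hippocampus, against 25.1, 23.6, 27.4 and 23.6 CPM in cortex. Both were higher without overlap, by 2.60 (SE 0.078) and 1.63 (SE 0.072). Grem1, a bone morphogenetic protein antagonist gene, was higher by 2.19 (SE 0.22). Bmp3, Wnt9a, Igfbp6 and Gfra2 were lower, with differences of -2.15 (SE 0.27), -2.07 (SE 0.17), -2.21 (SE 0.18) and -1.56 (SE 0.078). Of 46 Wnt and BMP genes, 10 were higher and 14 lower, and of 39 neurotrophin, FGF, IGF and neuregulin genes 11 were higher and 8 lower. Activity-regulated genes, which neurons transcribe after firing, had 11 higher and 16 lower of 39. Egr1 was at 123, 70.1, 73.1 and 53.99 CPM in hippocampus, against 245, 211, 205 and 212 CPM in cortex, and Arc at 49.4, 37.4, 29.2 and 25.7 CPM in hippocampus, against 118, 63.8, 62.5 and 78.8 CPM in cortex. Both were lower in every hippocampal library than in any cortical one, while Rasd1, which encodes a small GTPase, was at 27.98, 29.1, 26.5 and 19.8 CPM in hippocampus, against 4.04, 3.65, 4.66 and 7.12 CPM in cortex, higher by 2.32 (SE 0.18). Ptgs2, the cyclooxygenase-2 gene, and Jun were higher by 1.06 (SE 0.083) and 1.05 (SE 0.13).

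Few microglial and myelin genes were called. Of 21 microglial markers 1 was called, Trem2 (-0.60 (SE 0.21)), a call that was lost under 9 of 21 alternatives (adjusted p 0.059 to 0.19), and of 25 myelin genes only Enpp2 (1.64 (SE 0.17)), which the choroid plexus list also holds. With DJ17 and DJ6 left out the myelin sums were 9509, 8377 and 6921 CPM in hippocampus, against 7767, 8657 and 6424 CPM in cortex, and 2 myelin genes were called higher and 2 lower. Of 24 endothelial and mural genes 6 were lower and none higher. That is a called share of 25%, against 37.8% called and 16.9% called lower among all genes tested. Those lower included the junction gene Cldn5 (-0.62 (SE 0.20)) and Ly6c1 (-0.61 (SE 0.18)). The call of Cldn5 was lost under 5 of 21 alternatives (adjusted p 0.054 to 0.12), and that of Ly6c1 lost under 2 of 21 alternatives (adjusted p 0.055 to 0.08). Cortical DJ3 stood apart from the other cortical libraries in both the vascular and the microglial sum. The vascular sum was 868, 797, 745 and 785 CPM in hippocampus, against 1035, 846, 849 and 844 CPM in cortex, and the microglial sum was 545, 485, 455 and 470.4 CPM in hippocampus, against 617, 487, 465 and 485 CPM in cortex, with DJ3 the first cortical value of each. Without DJ3, 3 vascular genes were lower and none higher, and 1 microglial gene was higher and none lower. Astrocyte markers divided, with 7 higher and 5 lower of 21. Gfap, the intermediate filament gene, was at 196, 203, 125 and 196 CPM in hippocampus, against 47.05, 59.7, 60.5 and 48.3 CPM in cortex. Agt, the angiotensinogen gene, was at 11.4, 10.9, 14.1 and 24.7 CPM in hippocampus, against 1.95, 2.32, 1.84 and 1.89 CPM in cortex. Both were higher in every hippocampal library than in any cortical one, by 1.71 (SE 0.14) and 2.58 (SE 0.22). Aqp4, the water channel gene, was higher by 0.65 (SE 0.15), and Acsbg1 and Aldoc were lower, with differences of -0.40 (SE 0.092) and -0.35 (SE 0.067). Nuclear-encoded genes of the respiratory chain had 20 lower and none higher of 61, with a median of -0.14, led by Cox7b (-0.73 (SE 0.076)) and Ndufb4 (-0.68 (SE 0.10)). Their called share was 32.8%, against 37.8% called and 16.9% called lower among all genes tested. Of 14 perineuronal net genes 4 were higher and 3 lower, Cspg5 among them (-0.79 (SE 0.09)). Oligodendrocyte precursor genes had 4 higher and 1 lower of 13, and meningeal fibroblast genes 6 higher and 1 lower of 18. These are called shares of 38.5% and 38.9%, near the 37.8% of all genes tested.

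Markers of neighbouring nuclei were checked in the same way. Of 23 striatal markers, 3 were higher and 1 lower, a called share of 17.4%, below the 37.8% of all genes tested. Their summed level was 1759, 1037, 1150.0 and 549 CPM in hippocampus, against 742, 1187, 1189 and 846 CPM in cortex, which overlap and are highest in DJ17. The genes called were Six3 (2.63 (SE 0.53)), Isl1 (1.66 (SE 0.52)), Gng7 (1.02 (SE 0.16)) and Meis2 (-0.54 (SE 0.18)). The call of Isl1 was lost under 4 of 21 alternatives (adjusted p 0.063 to 0.07) and that of Meis2 lost under 8 of 21 alternatives (adjusted p 0.058 to 0.15). Drd2, Adora2a and Ppp1r1b, of striatal projection neurons, were not called, at 0.67, 0.61 and -0.39. Of 18 thalamic markers, 10 were higher and 3 lower, with a median of 0.79 against 0.023 over all genes tested. The called share was 72.2%, against 37.8% of all genes tested. Their summed level, in which members with many reads weigh most, overlapped between the regions. It was 827, 629, 779 and 715 CPM in hippocampus, against 723, 759, 804 and 800.0 CPM in cortex. Prkcd and Shox2 were higher, by 1.78 (SE 0.23) and 2.69 (SE 0.64). Lhx9, Calb2 and Six3 were also among those higher, and they stand in the hippocampal identity, hilar and striatal lists as well. Differences on the thalamic list ran from -0.98 to 5.74, the highest being that of Lhx9. Its lower members are not named here. The vesicular transporter gene Slc17a6, named after its value was seen, was not called (-0.073 (SE 0.26)). Gbx2 and Irx2 of the thalamic list were below the minimum. The part of neighbouring tissue in the results above was not tested.

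The knockout libraries gave the same comparison in other samples. Their cortical DJ numbers were likewise all lower than their hippocampal ones, so a shared direction cannot tell the region from that numbering. The part of neighbouring tissue in a shared direction was not tested. All 30 leading genes were called in the same direction between knockout hippocampus and knockout cortex, where 4816 of 13935 genes tested were called, 34.6%. The region difference itself was compared between genotypes over all 16 libraries, and it differed at 378 of 13881 genes tested, 2.72%. Without hippocampal control DJ17 that count was 699, and without hippocampal control DJ20 it was 248. Of the 30 leading genes 8 were among the 378. The leading genes were chosen by their difference in controls, so the direction of their change between genotypes is a description only. Slc9a4 had a region difference of 1.98 in knockouts and 4.85 in controls (adjusted p of the change 3.0e-05). Myl4 had -0.95 in knockouts and -3.12 in controls, and Olfr78 had -0.76 in knockouts and -2.95 in controls. Npy2r, Htr4, Dkkl1, Chrdl1 and Fhod3 also had a smaller region difference in knockouts, at 3.56, 2.72, -1.58, -2.21 and -2.07, than in controls, at 4.69, 4.03, -3.17, -3.04 and -2.86. Outside the leading genes, Ndst4 of CA1 had almost no region difference in knockouts, at -0.088 in knockouts and 2.90 in controls (adjusted p of the change 0.0012). Dsp did not pass this test, with a region difference of 5.50 in knockouts and 6.08 in controls.

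**Figure D5:**
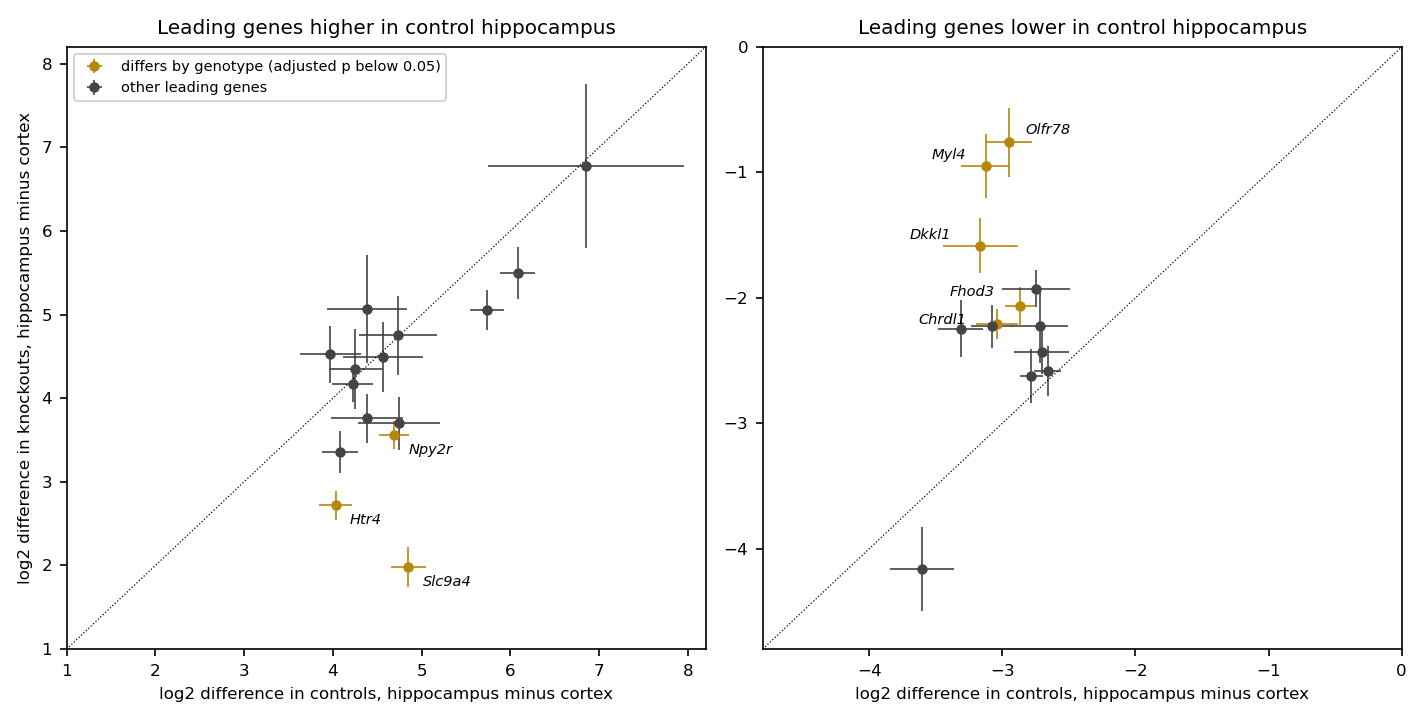
Region difference (hippocampus minus cortex, log2 scale) of 28 of the 30 leading genes in knockouts (vertical axis) and controls (horizontal axis), with bars of 1 SE and a dotted line of equality. All 28 genes lie on the same side of 0 in both genotypes, and the 8 named genes, whose difference changed with genotype, lie closer to 0 in knockouts than in controls.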

How the data were processed

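Poly(A) RNA was measured in 16 libraries, and the 8 control libraries were compared here, grouped by title. A deposited table, as CPM (counts-per-million) values of 21999 genes, was used. The submitters' processing notes name STAR, HTSeq and edgeR and the builds mm10 and GRCm38, with no roles or versions, and the use of strand in counting is not stated there, so overlapping and antisense genes and near-identical paralogs are uncertain. Every deposited CPM value was a whole multiple of 1 step within 0.001 reads, so whole reads were recovered for 100% of values. Totals were 9578904 to 14817870 reads in hippocampal and 7075560 to 9037821 in cortical control libraries. Replicate pairs differed by more than sampling noise (chi-square per degree of freedom 2.19 to 17.9 over 12 pairs). Floors cover counting error only. The 13 mitochondrially encoded genes were at 0 in every library.

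limma 3.58.1 under R 4.3.3 fitted log2(CPM + 0.5), with a mean-variance trend, for the genes that averaged 0.5 CPM or more, with Benjamini-Hochberg adjustment. edgeR 4.0.16 and DESeq2 1.42.0 on the recovered reads were alternatives, as were pseudocounts of 0.1 and 1, no minimum or 1 CPM, TMM, median-of-ratios and quantile scaling, robust variances, thinned reads, all 16 libraries in 1 fit, and leaving out each library. Leaving out DJ6 and DJ17 together was added after the data were seen. The fit was tested on simulated data.

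The members, the 46 gene lists and the rule for named genes were chosen with earlier results of these data known. The rule took the 15 largest differences in each direction among called genes with at least 5 CPM in the higher region, non-overlapping groups and no predicted model name. It then took up to 5 called members per direction of each list (with up to 2 others where fewer than 2 were called), and any member of the subfield and layer lists and of several factor and calcium-binding protein families. A few genes that the rule names are not reported here. Adora2a, Cck, Gad1, Gbx2, Irx2, Lmx1a, Mef2a, Nr3c1, Ppp1r1b, Rims1, Slc17a6 and Snap25 were named after their values were seen. Promoter windows came from RefSeq (GRCm38.p6).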

Additional observations from a re-analysis of the deposited data

Results flagged for a closer look

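The region difference changed with genotype (adjusted p below 0.05 of the interaction over 16 libraries, limma) for 56 of 266 genes named above, against 2.72% of all genes tested. Many of these genes were named for their region difference in the same controls, so the share is a description only. Values here are the region difference in knockouts minus that in controls, on the log2 scale. Among leading genes, the change was negative for Slc9a4 (-2.86), Htr4 (-1.31) and Npy2r (-1.13). Among leading genes, the change was positive for Olfr78 (2.19), Myl4 (2.18), Dkkl1 (1.58), Chrdl1 (0.83) and Fhod3 (0.80). Among subfield and layer markers, the change was negative for Ndst4 (-2.98), Fibcd1 (-1.41), Rgs14 (-1.23), Wfs1 (-1.14), Cpne4 (-0.95) and Necab2 (-0.86). Among further subfield and layer markers, the change was negative for Rfx3 (-0.85), Man1a (-0.61), Stxbp6 (-0.53) and Sox11 (-0.40). Among subfield and layer markers, the change was positive for Calb2 (1.93), Deptor (1.63), Zmat4 (1.03), Whrn (0.93), Plcxd2 (0.82) and Npnt (0.72). Among transcription factor genes, the change was negative for Nr4a3 (-0.94), Bhlhe22 (-0.90) and Nr3c2 (-0.67). Among transcription factor genes, the change was positive for Rorb (1.29), Tbr1 (0.66), Lmo4 (0.56) and Satb1 (0.51). Among channel and receptor genes, the change was negative for Scn3b (-0.99), Kctd4 (-0.89), Htr2c (-0.85) and Grm5 (-0.38). Among channel and receptor genes, the change was positive for Rxfp2 (1.80), Htr2a (1.33), Kcnab3 (1.33), Kcns1 (1.17) and Scn1a (0.63). Among synaptic and signalling genes, the change was negative for Rasd1 (-1.42), Ptgs2 (-1.41), Doc2b (-0.94), Nos1 (-0.77), Lrrtm1 (-0.62) and Camk2b (-0.35). Among synaptic and signalling genes, the change was positive for Doc2a (1.35), Pvalb (0.88) and Npy (0.56). Among growth factor, guidance and adhesion genes, the change was negative for Grem1 (-1.44), Epha6 (-0.99), Pcdh20 (-0.91), Sema3e (-0.88) and Pcdh19 (-0.65). Among growth factor, guidance and adhesion genes, the change was positive for Gfra2 (1.16) and Pcdh7 (0.86).

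In 30 of 580 groups of 4 values, 1 library lay far from the other 3 on the log2 scale (beyond Dixon's 95% critical value), and chance flags about 1 in 20. The cortical library DJ3 held 20.04 CPM for Crym, 4.59 CPM for Foxo6, 301 CPM for Gad2, 32.3 CPM for Nr4a1, 84.1 CPM for Nr4a3 and 70.6 CPM for Pdzd2. The cortical library DJ3 also held 465 CPM for Scn1a, 617 CPM for the summed level of microglia markers and 1035 CPM for the summed level of endothelial and mural genes. The cortical library DJ6 held 93.8 CPM for Cacng3, 0.443 CPM for Galr1, 0.443 CPM for Igfbpl1, 1.44 CPM for Kcng2 and 363 CPM for Lmo4. The cortical library DJ7 held 0.283 CPM for C1ql2, 94.97 CPM for Man1a, 351 CPM for Nfib, 45.1 CPM for Nos1 and 23.04 CPM for Pou3f1. The cortical library DJ8 held 55.4 CPM for Neurod1. The hippocampal library DJ17 held 8.14 CPM for Ephb6, 19.1 CPM for Slc9a4 and 170.1 CPM for the summed level of mossy cell and hilar markers. The hippocampal library DJ20 held 955 CPM for Camk2b. The hippocampal library DJ21 held 125 CPM for Gfap, 128 CPM for Kctd4, 162 CPM for Prox1 and 20.6 CPM for Trpc6. The hippocampal library DJ22 held 196 CPM for Cpne4 and 442 CPM for Ttr.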

How the results depend on the processing

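The counts of called genes changed little with the processing. Under the alternatives other than leaving out 1 library, between 4793 and 5254 genes were called against 5222, and between 847 and 1222 with a 2-fold difference against 1031. Leaving out 1 library gave 4461 to 5268 called genes and 1023 to 1068 with a 2-fold difference. edgeR's quasi-likelihood test on the recovered reads called 5101 genes, 4801 of them shared with limma. The median over all genes tested moved from 0.023 to between -0.011 and 0.0091 under other scalings.

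The region difference compared between genotypes depended on single libraries, with 248 to 699 genes when 1 library was left out, against 378. The highest count came without hippocampal control DJ17 and the lowest without hippocampal control DJ20, and the cause was not tested.

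Of 266 genes given with values, 236 kept their direction and their side of the threshold under all alternatives run, and 16 of 244 called genes lost the call under at least 1. Many of these genes were named for a large called difference in the main fit. These counts therefore do not measure how stable calls are among all genes. No called gene changed sign. Signs changed for genes that were not called. With 1 library left out, the log2 difference ranged over -0.12 to 0.043 for C1ql3, -0.042 to 0.16 for Emx2, -0.00046 to 0.21 for Frzb and -0.0071 to 0.048 for Gad1. It ranged over -0.14 to 0.0031 for Nr2f1, -0.72 to 0.034 for Ppp1r1b and -0.27 to 0.24 for Slc17a6. Without DJ6 and DJ17 together it was 0.00013 for C1ql3, 0.022 for Fezf2 and 0.027 for Tac2, and with edgeR it was -0.0051 for Gad1. The summed levels of the marker lists moved by less than 1 SD in all 288 combinations of list and setting. The SD was the larger of that between hippocampal and that between cortical libraries, on the log2 scale. Leaving out 1 library can hardly move a group mean by that much, so those combinations say little about stability. Leaving out DJ6 and DJ17 together was not among these settings.

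No paired analysis was possible because the hippocampal and cortical libraries share no replicate number. Depth differed with the region, and reads thinned to the lowest depth gave 4893 called genes. Levels below 1 CPM rest on few reads.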
